A study of Mus musculus with 9 samples.

Results

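The 9 genes described here encode the actin and myosin filaments of smooth muscle and the proteins that regulate them. The rule names them for this function and uses no measured value, but it was set with earlier results of these data known: the actins Acta2 and Actg2, the myosin heavy chain Myh11, the regulatory light chain Myl9, the actin-binding proteins Tagln, Cnn1 and Cald1, and the tropomyosins Tpm1 and Tpm2. They are 9 of the 46078 gene identifiers in the count tables. All 9 were tested in each comparison, but Actg2 and Cnn1 passed the expression filter against 0 h only through the co-culture libraries, so a difference in these genes was a condition of their being tested. The other 7 reached the filter's level in all 0 h libraries.

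Poly-A RNA was sequenced from EGFP-SSCs, a wild-type mouse spermatogonial stem cell (SSC) line that carries a green fluorescent protein. The 0 h cells came from normal culture on mitomycin C-treated mouse embryonic fibroblasts. The 24 h and 48 h cells had been mixed in equal parts with somatic cells of busulfan-exposed mouse testes, taken 3 to 7 days postpartum, and cultured with KSR, BMP-4/7, retinoic acid, activin A, testosterone, FSH and BPE, after which the fluorescent cells were recovered by flow sorting. The labels name this sort for 24 h and 48 h, and the study's text speaks of sorting SSCs from the stages of culture without naming 0 h. Each time point had 3 libraries labelled as biological replicates, and all of them came from 1 line. The co-culture, its medium and the time away from the feeder cells differ together between 0 h and the later groups and cannot be told apart. The libraries held 16825251 to 22201892 counts. The germ cell genes Ddx4, Dazl and Mael were present in every library, Ddx4 at 213 to 461 CPM, Dazl at 421 to 1350 CPM and Mael at 199 to 233 CPM. CPM is the count scaled to a common library total after TMM normalization. In pooled RNA of sorted cells, fewer cells of a type and less RNA per cell cannot be told apart.

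Smooth muscle contracts when calcium and calmodulin activate a kinase that phosphorylates the regulatory light chain of myosin, which then pulls on filaments of smooth muscle actin. Tropomyosin, calponin, caldesmon and transgelin lie along these actin filaments and modulate or stabilise them. Many of the genes share CArG boxes, the DNA element bound by serum response factor (SRF), whose coactivators are myocardin and the myocardin-related factors. In the testis their smooth muscle forms are known from the peritubular myoid cells around the tubules and from vessel walls. Tpm1 and Cald1 also make forms of non-muscle cells. In the 0 h libraries they stood at 69.4 to 81.8 CPM and at 8.02 to 21.6 CPM.

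The RefSeq promoter table for GRCm38.p6 held entries for 6 of the 9 genes, with 7 windows. It held none for Actg2, Myh11 and Tagln, so their upstream sequence was not searched. The 250 bases before each start were searched on both strands for the CArG box, which is CC, 6 bases that are all A or T, and GG. A looser form with 1 G or C among the 6 bases was searched as well. The strict form was found upstream of Myl9 and in none of the other 6 windows, against 1.47% of all 32851 windows in the table. The looser form was found once upstream of Myl9 and at 2 places upstream of Acta2, against 7.24% of all windows with at least 1 and 0.548% with 2 or more. The stretches that follow are shown because they hold the boxes of these genes, with the boxes in capitals. For Myl9, the part that lies outside annotated exons is given, from 250 to 45 bases before the RefSeq start (chr2:156775214-156775419, plus strand).
Myl9 upstream stretch: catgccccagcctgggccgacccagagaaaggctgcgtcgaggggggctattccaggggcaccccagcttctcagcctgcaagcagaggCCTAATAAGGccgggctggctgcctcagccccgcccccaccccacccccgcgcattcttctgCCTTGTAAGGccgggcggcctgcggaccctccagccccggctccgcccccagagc
Acta2 distal box: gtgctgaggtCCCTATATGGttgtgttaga
Acta2 proximal box: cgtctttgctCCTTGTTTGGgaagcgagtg
The Acta2 stretches lie at chr19:34255438-34255467 and chr19:34255388-34255417 on the minus strand. GENCODE M21 starts its Acta2 transcript farther upstream than RefSeq, and there both stretches lie within the first exon. The MCAT motif (CATTCC on either strand) was found in the windows of Acta2, Cald1 and Tpm1, against 12.6% of all windows. A match is a run of letters and does not show that a factor binds there.

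All 9 genes were higher at 24 h and at 48 h than at 0 h. The rises at 48 h ran from less than 2-fold for Tpm1 to about 151-fold for Actg2, and the CPM of the 9 genes together went from 98.6 to 115 at 0 h, through 329 to 447 at 24 h, to 526 to 639 at 48 h. By edgeR's quasi-likelihood test at an adjusted p of up to 0.05, 9 of 9 were called higher at 24 h, where 11.4% of the 17592 genes tested were, and 9 of 9 at 48 h, where 13% of 17755 were. Both comparisons use the same 0 h libraries. The libraries of the groups did not overlap for 9 of 9 genes in either comparison, against 21.2% of all genes tested in this direction at 24 h and 22.9% at 48 h. Actg2 and Cnn1 passed the filter only through the later libraries, so their part in these counts was not free of that condition. With at least 10 counts asked of every library, both dropped out, and 7 of the genes were called higher in each comparison. On the log2 scale the 9 genes had a median rise of 2.48 at 24 h, and of 2.89 at 48 h, beside 0.01 and 0.02 over all genes tested. Scaling by library size alone moved those overall medians to 0.12 and 0.13 and left all 9 calls in place. It turned the split of all genes called from 2002 higher and 2492 lower to 2742 and 2060 at 24 h, and from 2310 and 3292 to 3045 and 2720 at 48 h.

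**Figure D1:**
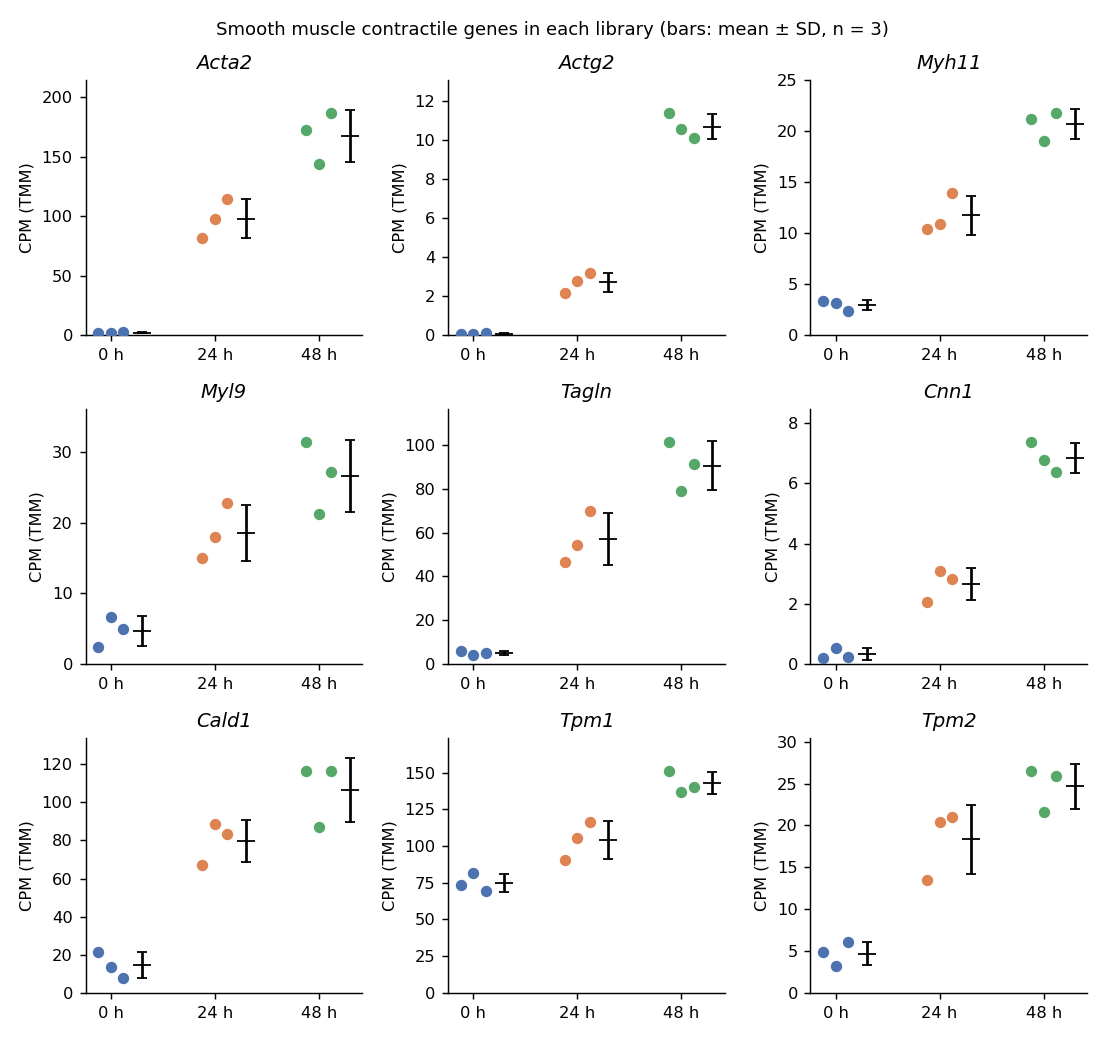
CPM (TMM-normalized) of the 9 smooth muscle contractile genes in each library at 0 h, 24 h and 48 h, with the mean and SD of 3 libraries beside the points. Each vertical axis starts at 0, and in every panel the 0 h libraries sit below all libraries of 24 h and 48 h.

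The actins showed the steepest rises. Acta2 (ENSMUSG00000035783, chr19:34241090-34255590, minus strand), smooth muscle alpha-actin and the major actin of contracting smooth muscle, stood at 1.87, 1.49 and 2.59 CPM in the 0 h libraries. It reached 81.8, 97.8 and 114 CPM at 24 h and 173, 144 and 187 CPM at 48 h. The groups were fully apart, and even the lowest 24 h library exceeded the highest 0 h library by more than an order of magnitude. Acta2 had a log2 fold change of 5.63 (SE 0.24, edgeR adjusted p = 1.57e-05) at 24 h, and of 6.39 (SE 0.24, adjusted p = 8.26e-06) at 48 h. Between 24 h and 48 h it was a further 0.77 (SE 0.13, edgeR adjusted p = 0.00375).

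Actg2 (ENSMUSG00000059430, chr6:83512905-83536265, minus strand), the gamma-actin of gut and bladder smooth muscle, was nearly unread at 0 h, with 1, 1 and 2 counts. It had 44, 52 and 65 counts at 24 h and 218, 244 and 200 counts at 48 h. With so few reads at 0 h, the size of the rise is loose: the ratio of scaled counts was 38.0 at 24 h (95% exact binomial interval 14.6 to 141) and 151 at 48 h (58.5 to 554), intervals that cover counting error only. In CPM the 24 h libraries stood at 2.16, 2.78 and 3.17 and the 48 h libraries at 11.4, 10.6 and 10.1. These groups did not overlap, and Actg2 had the highest log2 fold change of the 9 genes from 24 h to 48 h, 1.97 (SE 0.17, edgeR adjusted p = 0.000187). On a per-length scale, Actg2 was 3.72% to 4.01% of the Acta2 level in TPM (transcript counts per length, scaled to a common total) at 24 h and 7.65% to 10.4% at 48 h.

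The motor proteins rose less. Myh11 (ENSMUSG00000018830, chr16:14194535-14291372, minus strand), the smooth muscle myosin heavy chain and the most specific marker of the lineage, stood at 3.36, 3.12 and 2.39 CPM at 0 h. It was at 10.4, 10.9 and 14.0 CPM at 24 h and 21.2, 19.0 and 21.8 CPM at 48 h. The libraries of the 3 groups formed separate ranges. Its log2 fold change was 2.00 (SE 0.21, edgeR adjusted p = 0.000549) at 24 h, 2.81 (SE 0.18, adjusted p = 4.92e-05) at 48 h, and 0.80 (SE 0.13, adjusted p = 0.00273) between them. Reads from related myosins could enter this count only to a small extent, since 1.16% of the 75-base windows of its transcript matched Myh9 or Myh10 at 97% identity.

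Myl9 (ENSMUSG00000067818, chr2:156775420-156781658, plus strand), the regulatory light chain that the kinase phosphorylates, was uneven at 0 h, with 2.37, 6.65 and 4.88 CPM. It stood at 15.0, 17.9 and 22.7 CPM at 24 h and 31.4, 21.2 and 27.1 CPM at 48 h. All co-culture libraries were above 0 h, while replicate 2 of 48 h lay below replicate 3 of 24 h. Against 0 h, Myl9 changed by 2.00 (SE 0.35, edgeR adjusted p = 0.00522) at 24 h on the log2 scale, and by 2.51 (SE 0.35, adjusted p = 0.00161) at 48 h. The difference of 0.51 (SE 0.17) from 24 h to 48 h was not called (edgeR adjusted p = 0.064).

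Among the proteins bound to the actin filament, transgelin had the highest TPM at 24 h and 48 h, though not at 0 h. Tagln (ENSMUSG00000032085, chr9:45929619-45936058, minus strand), also known as SM22-alpha, stood at 5.92, 4.26 and 4.93 CPM at 0 h, at 46.7, 54.4 and 69.8 CPM at 24 h, and at 101, 78.8 and 91.4 CPM at 48 h. No library of a later group reached down to an earlier one. The log2 fold change was 3.51 (SE 0.20, edgeR adjusted p = 4.29e-05) at 24 h, 4.17 (SE 0.18, adjusted p = 1.23e-05) at 48 h and 0.66 (SE 0.14, adjusted p = 0.012) from 24 h to 48 h, and this last call was lost in a fit of all 9 libraries (adjusted p = 0.0507). In GENCODE M21, 62.4% of the Tagln exon bases overlap the antisense gene Gm48529 and 5.43% overlap Pcsk7 on the opposite strand. The strand setting of the counting is not given in the sources used here, so reads from these genes and from Tagln may not be separable.

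Cnn1 (ENSMUSG00000001349, chr9:22099216-22109630, plus strand), calponin 1, which inhibits the myosin ATPase on actin, had 3, 11 and 5 counts at 0 h, or 0.187, 0.545 and 0.249 CPM. It reached 2.06, 3.10 and 2.83 CPM at 24 h and 7.38, 6.77 and 6.37 CPM at 48 h. The 3 groups were apart, and the step from 24 h to 48 h was wider than the spread within either group. Its log2 fold change was 2.99 (SE 0.42, edgeR adjusted p = 0.00216) at 24 h, 4.33 (SE 0.36, adjusted p = 0.00016) at 48 h and 1.35 (SE 0.19, adjusted p = 0.0017) between them.

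Cald1 (ENSMUSG00000029761, chr6:34598500-34775473, plus strand), caldesmon, which has smooth muscle and non-muscle isoforms that gene counts do not separate, stood at 21.6, 13.6 and 8.02 CPM at 0 h. The 24 h libraries were at 67.2, 88.7 and 83.3 CPM and the 48 h libraries at 116, 87.3 and 117 CPM. The later groups overlapped each other, since replicate 2 of 48 h lay just below replicate 2 of 24 h, but not 0 h. Cald1 had a log2 fold change of 2.48 (SE 0.34, edgeR adjusted p = 0.00179) at 24 h and 2.89 (SE 0.35, adjusted p = 0.000876) at 48 h. From 24 h to 48 h the value was 0.41 (SE 0.13), just above the threshold (edgeR adjusted p = 0.0543).

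The tropomyosins differed most in how they started. Tpm1 (ENSMUSG00000032366, chr9:67022590-67049406, minus strand), which also makes isoforms of non-muscle and striated muscle cells, was already at 73.2, 81.8 and 69.4 CPM at 0 h. It stood at 90.2, 105 and 116 CPM at 24 h and 151, 137 and 140 CPM at 48 h, with no overlap between groups. This was the smallest change of the 9 genes against 0 h, with a log2 fold change of 0.49 (SE 0.13, edgeR adjusted p = 0.027) at 24 h, 0.93 (SE 0.11, adjusted p = 0.000662) at 48 h and 0.45 (SE 0.09, adjusted p = 0.00928) between them. The 24 h call was lost without replicate 2 of 0 h, without replicate 2 or replicate 3 of 24 h, and with the replicate number as a block, where the adjusted p reached 0.108.

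Tpm2 (ENSMUSG00000028464, chr4:43514711-43523765, minus strand), beta-tropomyosin, stood at 4.86, 3.22 and 6.02 CPM at 0 h, 13.5, 20.5 and 21 CPM at 24 h, and 26.5, 21.6 and 26.0 CPM at 48 h. Its 3 groups did not overlap, though the lowest 48 h library was close to the highest 24 h library. The log2 fold change was 1.97 (SE 0.27, edgeR adjusted p = 0.00197) at 24 h and 2.39 (SE 0.24, adjusted p = 0.000375) at 48 h. The step of 0.42 (SE 0.16) from 24 h to 48 h was not called (edgeR adjusted p = 0.0907).

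**Figure D2:**
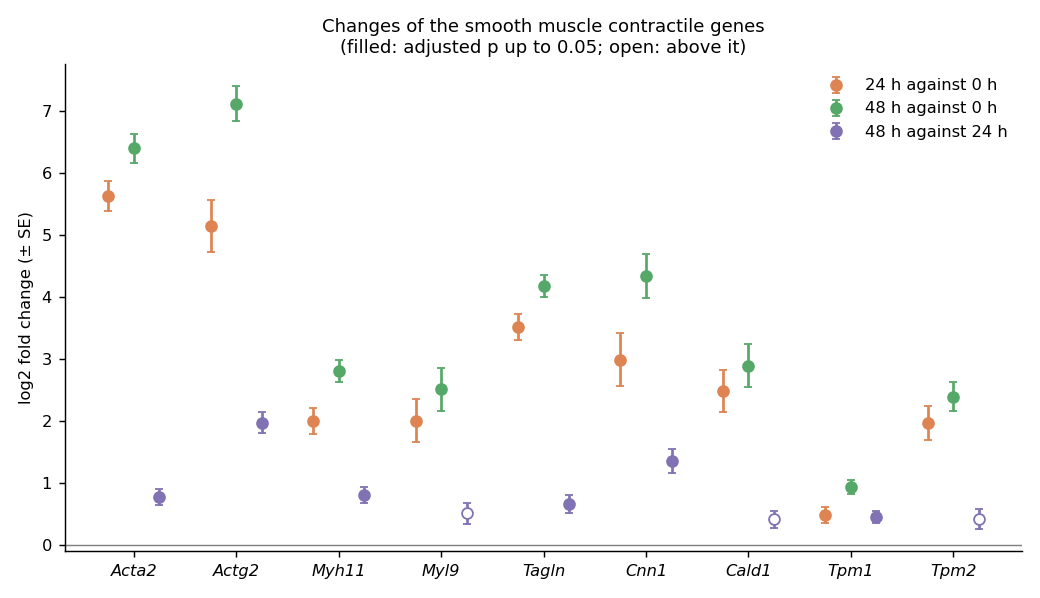
Log2 fold change (vertical axis, with SE) of the 9 genes in the comparisons of 24 h with 0 h, 48 h with 0 h and 48 h with 24 h, from edgeR, with filled points for adjusted p up to 0.05 and open points above it. Every point lies above 0, and the open points are Myl9, Cald1 and Tpm2 from 24 h to 48 h.

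From 24 h to 48 h, 6 of 9 genes were called higher, where 8.61% of the 17499 genes tested were, with a median of 0.66 for the 9 genes and -0.00 over all genes. For 7 of 9 the libraries of 24 h and 48 h did not overlap, against 18.6% of all genes tested. This comparison shares its 24 h libraries with the first and its 48 h libraries with the second. Cald1, Tpm2 and Myl9 passed the threshold under some other settings, and without replicate 2 of 48 h all 3 did, so that the count was 9.

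How much of the rise in CPM from 0 h to 48 h was present by 24 h varied by gene. It was 70.8% for Cald1, 68.1% for Tpm2, 63.4% for Myl9, 60.8% for Tagln and 57.9% for Acta2. For Myh11 it was 49.6%, for Tpm1 42.8%, for Cnn1 35.9% and for Actg2 24.8%. With each library left out in turn, Actg2 ranged from 22.5% to 27.3% and Cnn1 from 32.5% to 40.5%, while Cald1 ranged from 64.0% to 77.5% and Tpm2 from 61.5% to 80.1%. Actg2 and Cnn1 thus lay later than Cald1, Tpm2, Myl9, Tagln and Acta2 in every such recount. These shares are descriptions and were not tested.

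In TPM, a scale on which genes can be compared, the order of the 9 genes changed after 0 h. Tpm1 led at 0 h with 30.3 ± 4.36 TPM (SD, n = 3), followed by Myl9 at 10.4 ± 4.95 TPM and Tagln at 6.64 ± 1.34 TPM, the last pair with overlapping libraries. Tpm2 (4.18 TPM), Cald1 (3.19 TPM) and Acta2 (2.33 TPM) came next, each overlapping its neighbour, and Myh11 (1.03 TPM), Cnn1 (0.315 TPM) and Actg2 (0.116 TPM) were lowest. Acta2 moved from sixth place to the top, with 127 ± 14.0 TPM at 24 h and 208 ± 18.3 TPM at 48 h, and Tagln was next at 81.3 ± 12.1 TPM and 124 ± 9.94 TPM. Tpm1 and Myl9 followed and overlapped each other at both times, at 45.6 and 45.2 TPM at 24 h and at 60.2 and 62.3 TPM at 48 h. Cald1 and Tpm2 also overlapped, at 18.9 and 17.9 TPM at 24 h and 24.1 and 23.2 TPM at 48 h. Myh11 and Cnn1 stayed low, at 4.39 and 2.77 TPM at 24 h and 7.44 and 6.85 TPM at 48 h, and Actg2 at 4.93 TPM overlapped Myh11 at 24 h but not at 48 h, where it was at 18.8 TPM.

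Apart from Cald1, for which no relative was listed, the genes belong to families with members that most cells use, and 1 of these relatives was called higher against 0 h. Beta-actin (Actb) and gamma-actin (Actg1), the cytoskeletal actins, were not called in any comparison, nor were the non-muscle myosin Myh10 and the light chains Myl12a and Myl12b. Of 13 such paralogs, 1 was called higher and 5 lower at 24 h, and 1 and 6 at 48 h, with medians of -0.19 and -0.25. Over all genes tested, 14.2% were called lower at 24 h and 18.5% at 48 h. From 24 h to 48 h, none of the paralogs was higher and 4 were lower, namely Myh9, Myh14, Tagln2 and Tpm3. In that comparison 8.61% of all genes tested were higher and 12.7% lower. With 1 library left out, the lower count ran from 1 to 4. Transgelin 2 (Tagln2) fell by 0.78 at 24 h (SE 0.14, edgeR adjusted p = 0.00702) and by 1.16 at 48 h (SE 0.14, adjusted p = 0.000866) on the log2 scale. Calponin 3 (Cnn3) fell by 0.57 and 0.70, calponin 2 (Cnn2) fell by 0.84 and 0.90, and the neuronal transgelin Tagln3 fell by 1.74 and 2.39. Tropomyosin 3 (Tpm3) fell by 0.51 and 0.90, whereas Tpm4, a non-muscle tropomyosin, was the paralog that rose, by 0.87 (SE 0.13, edgeR adjusted p = 0.00284) at 24 h and 0.80 (SE 0.13, adjusted p = 0.00377) at 48 h. The 24 h call was lost for Cnn2 without replicate 2 of 0 h or replicate 1 or 2 of 24 h, and for Tpm3 without replicate 2 of 24 h. Against 0 h, the non-muscle myosin Myh14 was lower at 48 h alone (-0.89, SE 0.20, edgeR adjusted p = 0.0134), a call lost without replicate 1 or replicate 3 of 48 h.

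The share of each family's TPM held by the smooth muscle members was higher at each later time, with the widest gain in the transgelins. Tagln was 3.11% ± 1.04 (SD, n = 3) of the transgelin TPM at 0 h, 38.1% ± 2.92 at 24 h and 56.0% ± 3.82 at 48 h, so that it passed Tagln2 in level. Tpm1 and Tpm2 together went from 18.2% ± 1.08 of the tropomyosin TPM to 26.5% ± 1.74 and 36.2% ± 1.39. Myl9 went from 4.49% ± 1.44 of the regulatory light chains to 16.8% ± 1.83 and 22.2% ± 3.82. The remaining shares stayed small. Acta2 and Actg2 went from 0.0993% ± 0.0207 of the actin TPM to 4.92% ± 0.660 and 8.21% ± 1.22, beside Actb at 1524 TPM and Actg1 at 1037 TPM at 48 h. Myh11 went from 0.855% ± 0.229 of the myosin heavy chains to 3.17% ± 0.461 and 6.45% ± 0.822, and Cnn1 from 0.132% ± 0.0743 of the calponins to 1.69% ± 0.267 and 4.54% ± 0.568. In 17 of 18 comparisons of shares between times the libraries did not overlap, each with a two-sided exact permutation p of 0.1, the smallest that 3 against 3 libraries can give (Benjamini-Hochberg adjusted 0.106 over 18 tests), so none passed 0.05. The exception was Myl9 from 24 h to 48 h (exact permutation p = 0.2). The shares are built from the member levels already described, in the same libraries, so they are not separate support for the rises. The sizes depend on the gene length used: with the longest transcript in place of all exons, the gain in the actin share from 0 h to 48 h was 6.49 points rather than 8.11. With raw counts the gain of Myl9 was 8.09 points rather than 17.7, and that of Myh11 was 3.61 rather than 5.59.

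**Figure D3:**
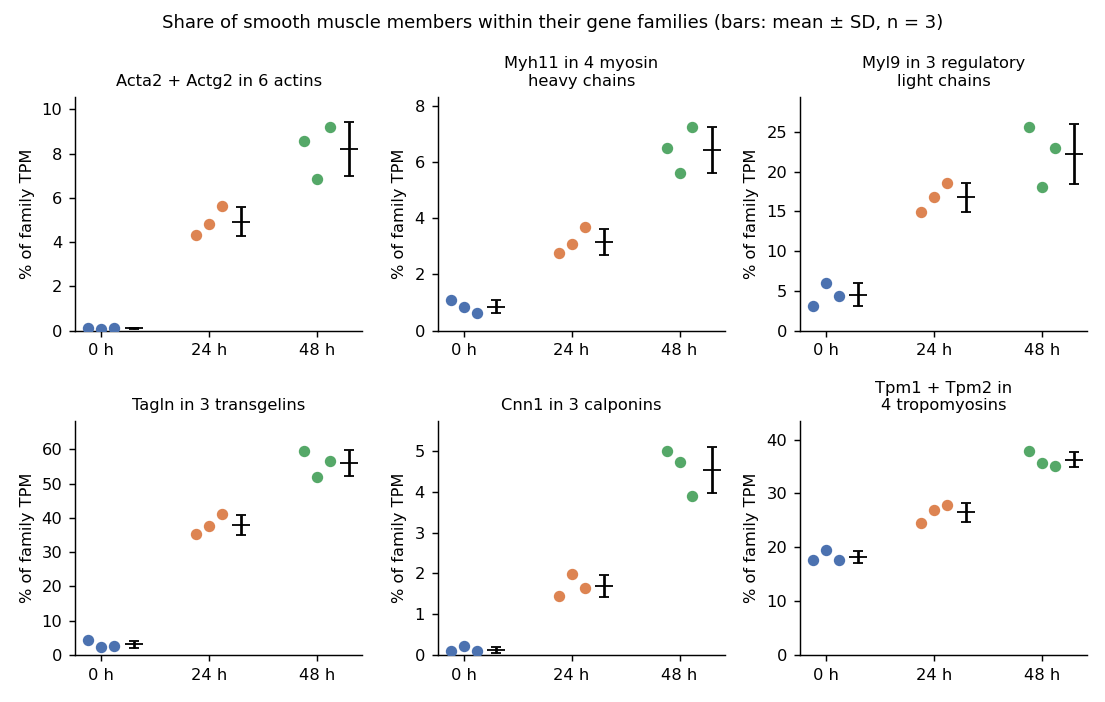
Percent of each gene family's summed TPM held by its smooth muscle members in each library at 0 h, 24 h and 48 h, with the mean and SD of 3 libraries. Tagln reaches 56.0% of the transgelins at 48 h, while Acta2 and Actg2 together reach 8.21% of the actins.

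Beyond the 9 genes, the rest of the contractile apparatus moved unevenly. Of 29 tested genes of the kinase and phosphatase that set light chain phosphorylation, of dense plaques and of the surrounding filaments, 7 were higher and 2 lower at 24 h, 10 and 3 at 48 h, and 6 and 2 from 24 h to 48 h. Among all genes tested, 11.4% were higher and 14.2% lower at 24 h, and 13% and 18.5% at 48 h. From 24 h to 48 h these shares were 8.61% and 12.7%. With 1 library left out, the higher counts ran from 5 to 9, 7 to 12 and 2 to 7, the last falling to 2 without replicate 1 of 24 h and to 3 without replicate 1 or replicate 3 of 48 h. The lower counts ran from 0 to 3 at 24 h, with 1 or fewer without replicate 2 of 0 h or any 24 h library, and from 2 to 5 at 48 h, with 5 without replicate 1 of 0 h. Lmod1 and Itga8 passed the filter against 0 h only through the later libraries, as Actg2 and Cnn1 did. The list had a median of 0.17 at 24 h, beside 0.42 at 48 h, on the log2 scale. Lmod1, leiomodin 1, which nucleates actin filaments in smooth muscle, had 0.125, 0.446 and 0.349 CPM at 0 h, 2.31, 2.24 and 2.25 CPM at 24 h and 3.45, 3.43 and 4.30 CPM at 48 h. All later libraries lay above 0 h, with a log2 fold change of 2.84 (SE 0.41, edgeR adjusted p = 0.00231) at 24 h and 3.54 (SE 0.39, adjusted p = 0.000597) at 48 h.

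Mylk, the myosin light chain kinase, stood at 23.2, 28 and 23.3 CPM at 0 h, 47.3, 45.4 and 45.5 CPM at 24 h and 66.7, 64.3 and 62.4 CPM at 48 h. These groups were tight and apart, and the log2 fold change was 0.90 (SE 0.12, edgeR adjusted p = 0.00159) at 24 h and 1.38 (SE 0.12, adjusted p = 0.000187) at 48 h. The phosphatase subunit Ppp1r12b was higher by 0.73 and 0.82, vinculin (Vcl), a plaque protein, by 0.57 and 0.71, and vimentin (Vim), the intermediate filament of mesenchymal cells, by 1.10 and 1.09. Integrin alpha 8 (Itga8) was called at 48 h (2.54, SE 0.45, edgeR adjusted p = 0.00489). Other smooth muscle proteins went the other way or were not called. Smoothelin (Smtn), found in contractile smooth muscle, was lower by -0.78 (SE 0.16, edgeR adjusted p = 0.00955) at 24 h and -0.87 (SE 0.16, adjusted p = 0.00601) at 48 h, although the 24 h call was lost without replicate 3 of 24 h (adjusted p = 0.0504). Desmin (Des), the muscle intermediate filament, stood at 3.30 to 5.38 CPM at 0 h and 3.91 to 4.70 CPM at 48 h (log2 fold change -0.05, 0.06 with library size alone, edgeR adjusted p = 0.898). Csrp1 and Flna, of this list, were not called in any comparison.

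**Figure D4:**
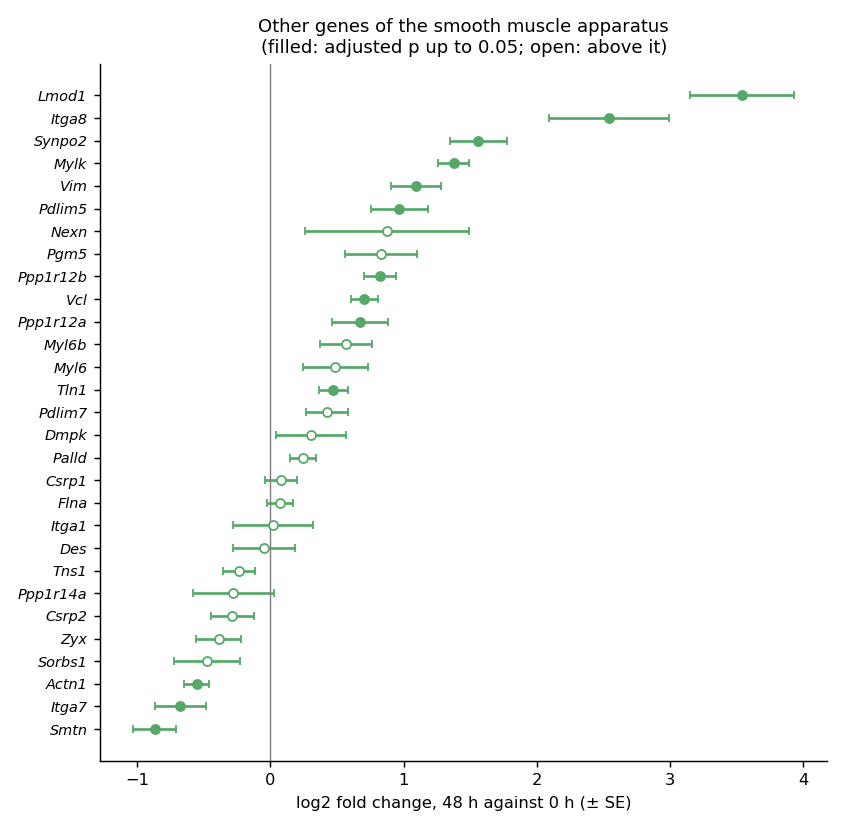
Log2 fold change at 48 h against 0 h (horizontal axis, with SE) of the 29 tested genes of the wider smooth muscle apparatus, from edgeR, with filled points for adjusted p up to 0.05. Lmod1 lies at 3.54 and Smtn at -0.87, and 16 of the 29 points are open.

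The listed SRF, myocardin and related factors did not rise together. Of 6 tested, none was higher and 2 were lower at 24 h, and 1 was higher and 2 lower at 48 h. Higher calls made up 11.4% of all genes tested at 24 h and 13% at 48 h, and lower calls 14.2% and 18.5%. Srf, whose product binds the CArG box, stood at 104, 142 and 171 CPM at 0 h, 91.5, 84.0 and 88.0 CPM at 24 h and 85.8, 98.2 and 79.8 CPM at 48 h. The later libraries all lay below 0 h, with a log2 fold change of -0.65 (SE 0.18, edgeR adjusted p = 0.0326) at 24 h and -0.66 (SE 0.19, adjusted p = 0.034) at 48 h. These calls were weak: they were lost with library size alone (adjusted p = 0.059 and 0.0629), with the replicate block, and without replicate 2 of 0 h or any library of the later group, and at 48 h also without replicate 3 of 0 h. Myocardin (Myocd), the coactivator of smooth and cardiac muscle, had 3 counts over the 0 h libraries, 20 over 24 h and 31 over 48 h and was not tested. Its ratio to 0 h was 6.30 (95% exact binomial interval 1.87 to 33.1) at 24 h and 9.40 (2.93 to 48.0) at 48 h, for counting error only. Mrtfa was not called in any comparison, and Mrtfb was called at 48 h (0.84, SE 0.18, edgeR adjusted p = 0.0121), though not without replicate 2 of 48 h (adjusted p = 0.0518). Foxf1, a factor of visceral mesenchyme, fell by 2.56 at 24 h and 3.21 at 48 h (SE 0.19 for each).

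Striated muscle genes were lower than at 0 h or not called, except 1 at 24 h. Of 23 listed, 12 were tested at 24 h and 10 at 48 h, of which 1 was higher and 5 lower at 24 h and 5 were lower at 48 h. Lower calls made up 14.2% of all genes tested at 24 h and 18.5% at 48 h, and higher calls 11.4% and 13%. The striated actin Actc1 was at 0 counts in all 0 h libraries and at most 0.147 CPM later, and the skeletal actin Acta1 did not exceed 0.608 CPM in any library. The lower count at 24 h was 1 without replicate 2 of 0 h or replicate 1 of 24 h, and 2 without replicate 2 or replicate 3 of 24 h, and at 48 h it ran from 4 to 5. From 24 h to 48 h, 1 of 11 was higher and 1 lower, beside 8.61% and 12.7% of all genes tested. The higher one was titin (Ttn), at 9.57, 13.1 and 11.7 CPM at 24 h and 32.4, 12.5 and 34.5 CPM at 48 h (log2 fold change 1.19, SE 0.32, edgeR adjusted p = 0.0289), with overlapping libraries and a call lost without any 24 h library or replicate 1 or 3 of 48 h. The lower one was Tnnt1, whose call was lost without replicate 1 or 3 of 24 h or any 48 h library. Alpha-actinin 2 (Actn2) fell by 2.56 at 24 h (SE 0.16, edgeR adjusted p = 6.15e-05) and by 2.86 at 48 h (SE 0.17, adjusted p = 3.34e-05). Tnnc1, troponin C of slow muscle and heart, was the gene called higher at 24 h, having passed the filter only through the later libraries, from 0.0996 to 0.298 CPM at 0 h to 0.534 to 0.932 CPM, and it lost the call without replicate 1 or replicate 3 of 24 h and with the replicate block (adjusted p up to 0.095).

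Genes known to respond to TGF-beta or SRF, most of them secreted proteins, were in part higher too. Of 13 tested, which include the intracellular Ankrd1, Smad7 and Skil, 8 were higher and 1 lower at 24 h and 8 were higher at 48 h, with medians of 1.23 and 2.12, and their summed level went from 795 to 967 CPM at 0 h to 1449 to 1813 CPM at 24 h and 2176 to 2379 CPM at 48 h. The lower one was Smad7, which lost its call without replicate 2 or 3 of 0 h or any 24 h library. Higher calls made up 11.4% of all genes tested at 24 h and 13% at 48 h, and lower calls 14.2% and 18.5%. Thrombospondin 1 (Thbs1) stood at 67.3, 39.0 and 32.7 CPM at 0 h, 214, 270 and 208 CPM at 24 h and 427, 368 and 434 CPM at 48 h. The groups were apart, with a log2 fold change of 2.33 (SE 0.28, edgeR adjusted p = 0.00105) at 24 h and 3.14 (SE 0.28, adjusted p = 0.000225) at 48 h. Periostin (Postn), a matrix protein of fibroblasts, was higher by 2.40 and 3.91, the TGF-beta binding protein Ltbp2 by 2.63 and 3.36, and lysyl oxidase (Lox), which crosslinks collagen, by 2.09 and 3.10. Ccn1 and Ccn2, secreted matrix-associated proteins, were higher by 2.23 and 1.99 at 24 h and by 2.12 and 2.27 at 48 h.

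Markers of other cell types also moved between 0 h and the later groups, although the later cells had been sorted for EGFP. Several of them passed the expression filter only through the later libraries, so that a difference was a condition of their being tested: Tcf21 among the stromal markers, Amh, Cldn11 and Dhh among the Sertoli markers, and Cyp11a1, Hsd3b1 and Nr5a1 among the Leydig markers. Among all genes tested, 11.4% were higher and 14.2% lower at 24 h, and 13% and 18.5% at 48 h. Of 12 fibroblast and stromal markers, 6 were higher and 1 lower at 24 h, and 8 and 1 at 48 h, and their summed level went from 914 to 1067 CPM at 0 h to 2710 to 3094 CPM at 24 h and 3503 to 3840 CPM at 48 h. Col1a1, a fibrillar collagen chain, was higher by 2.84 at 24 h and 3.16 at 48 h (SE 0.17 and 0.16), and Pdgfrb, the PDGF receptor of fibroblasts and mural cells, by 2.09 and 2.21. Tcf21, a factor of stromal progenitors, was at 0 counts in the 0 h libraries and at least 13.8-fold higher at 24 h, and at least 22.4-fold higher at 48 h, against a floor of 3 counts per library. Of 11 tested Sertoli cell markers, 8 were higher and 2 lower at 24 h and 9 and 1 at 48 h, with summed levels of 157 to 180, 220 to 299 and 312 to 326 CPM, while the defining receptor Fshr was at 0 counts at 0 h and at most 0.101 CPM later. On average, most of these sums was Ctsl, with means of 143, 148 and 191 CPM. From 24 h to 48 h, 3 of 10 tested were higher and 1, Amh, was lower, beside 8.61% and 12.7% of all genes tested. Of 4 tested Leydig cell markers, 3 were higher at 24 h and 4 at 48 h, with summed levels of 4.58 to 6.99, 28.7 to 44.8 and 29.1 to 37.3 CPM. Hsd3b1, a steroid synthesis enzyme of Leydig cells, was at 0 counts at 0 h and at least 26.5-fold higher at 24 h and at least 32.4-fold higher by 48 h, whereas Insl3 and Lhcgr did not exceed 0.321 CPM. The part of these cells in the rise of the 9 genes was not tested.

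Peritubular myoid markers, by contrast, were lower in sum. The 10 genes of that list, of which Itga8 and Des also stand in the list of the wider apparatus, summed to 275 to 299 CPM at 0 h, 163 to 167 CPM at 24 h and 163 to 169 CPM at 48 h. Of these, 2 were higher and 4 lower at 24 h, and 3 and 4 at 48 h. The shares over all genes tested were 11.4% higher and 14.2% lower at 24 h, and 13% and 18.5% at 48 h. No list count given here was tested against them. The hedgehog targets Ptch1 and Gli1 were among the lower genes, with Ptch1 at -1.32 and -0.77 and Gli1 at -2.17 and -1.77, and Smoc2 fell by 2.40 and 2.42. Nr2f2, a nuclear receptor of stromal cells that passed the filter only through the later libraries, as Itga8 did, was higher, from 0.299 to 0.446 CPM at 0 h to 4.32 to 5.66 CPM at 24 h and 6.32 to 7.06 CPM at 48 h. Pericyte markers summed to 700 to 854, 289 to 305 and 221 to 243 CPM, most of it Mcam (-1.56 and -1.95), with 1 of 6 higher and 1 lower at 24 h and 1 and 3 at 48 h. Kcnj8 and Higd1b, which define pericytes, did not exceed 0.214 CPM in any library. Endothelial markers summed to 68.7 to 92.3, 44.4 to 46.4 and 30.8 to 34.8 CPM, with 2 of 6 higher and 2 lower at 24 h and 2 and 3 at 48 h, and Emcn at 0 counts at 0 h. Tie1 among these, and Csf1r and Cd14 among the macrophage markers, passed only through the later libraries. Macrophage markers summed to 16.2 to 18.0, 7.00 to 12.2 and 7.74 to 8.40 CPM, with 2 of 3 higher and 1 lower at 24 h and 1 and 1 at 48 h, and C1qa and C1qc at 0 counts at 0 h. Germ cell markers summed to 1864 to 2814, 3650 to 3917 and 3021 to 3255 CPM, with 3 of 11 higher and 1 lower at 24 h and 3 and 3 at 48 h. Of these, Kit and Stra8, which mark differentiating spermatogonia, were higher by 6.08 and 8.48 at 24 h. Kit, Stra8 and Sohlh1, the 3 higher genes, summed to 59.4 to 74.9, 1690 to 1751 and 1003 to 1049 CPM, while the other 8 markers summed to 1789 to 2755, 1946 to 2166 and 1973 to 2215 CPM, with overlapping ranges. The part of these cells in the levels of the 9 genes was not tested either.

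**Figure D5:**
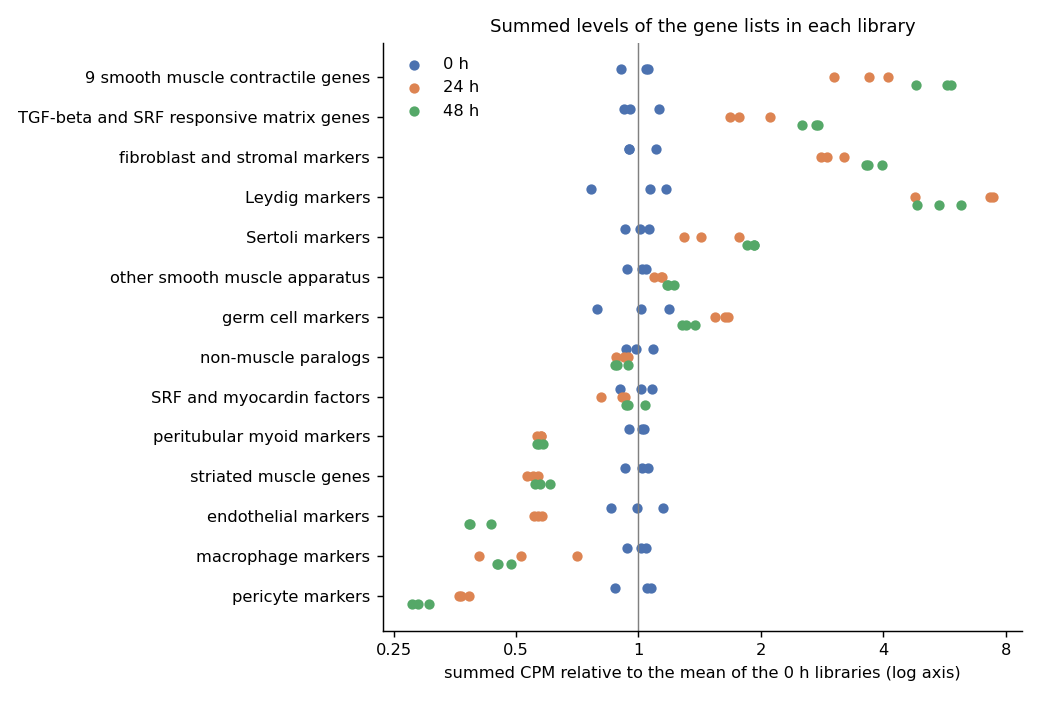
Summed CPM of each gene list in each library, divided by the mean of the 0 h libraries (horizontal log axis, with 1 marked by a line), for the 9 contractile genes, the wider apparatus, paralogs, factors, matrix genes and the markers of other cell types. The 9 genes, the wider apparatus, the matrix genes and the fibroblast, Sertoli, Leydig and germ cell markers lie to the right of the line at 24 h and 48 h. The paralogs and the myoid, striated muscle, endothelial, macrophage and pericyte lists lie to the left. The factors lie to the left at 24 h and on both sides at 48 h.

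The 9 genes varied together across libraries, all with the step from 0 h to 24 h. Over the 9 libraries, Pearson's r of log2 CPM between pairs of the genes ran from 0.873 (Cald1 and Myl9) to 0.996 (Acta2 and Tagln) in 36 pairs. Each gene's r with the mean standardised profile of all 9, itself included, ran from 0.949 for Tpm1 to 0.993 for Myh11. Of 11498 other genes that averaged 5 CPM or more in 1 of the groups, 805 had an r of at least 0.9 with this profile, and all of these points share the same libraries and their depth. The 10 most alike, by a rule that left out unnamed genes, were Fam114a1, Marcks, Clu, Jam2, Sri, Fam124a, Col5a2, Mfap3l, Tsc22d1 and Kirrel, with r from 0.993 to 0.997. Among them Fam114a1 went from 3.28 ± 0.167 CPM (SD, n = 3) at 0 h to 9.12 ± 0.608 CPM and then 14.0 ± 1.57 CPM at the later times. Col5a2, a fibrillar collagen chain, went from 13.8 ± 1.89 to 118 ± 11.4 and 198 ± 12.5 CPM, and Clu, which also stands in the list of Sertoli markers, from 6.11 ± 0.576 to 33.3 ± 11.3 and 56.2 ± 7.04 CPM.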

How the data were processed

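The authors deposited whole-number counts of reads per Ensembl gene for 9 libraries, 3 per time point. The submitters' processing notes name fastp, HISAT2, featureCounts and GRCm38; versions and strand setting are not given in the sources used here. GENCODE M21 gave symbols, lengths and positions for 45229 of 46078 identifiers, and the 849 others held at most 0.121% of a library's counts. The 9 genes and the lists were chosen with earlier results of these data known. For each comparison, its 6 libraries were filtered with filterByExpr, scaled by TMM and tested two-sided by quasi-likelihood in edgeR 4.0.16 (R 4.3.3). Benjamini-Hochberg adjustment ran over every gene tested, with calls at up to 0.05. P-values measure the spread between these libraries. TPM used union exon length. Alternatives were DESeq2 1.42.0, other scalings and filters, 1 fit of 9 libraries, a replicate block, GC and length offsets (added in view of earlier results), and each library left out. Shared sequence was searched with BLAST 2.17.0. Genes named from a list were those called with the highest levels, defining markers at the floor, paralogs, and the 10 most alike; further ones were chosen after their values were seen. The procedure was tested on simulated data. Single values of 2 genes of the lists are not reported here.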

Additional observations from a re-analysis of the deposited data

How the results depend on the processing

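The direction of all 9 genes held in each comparison under every alternative run. Against 0 h, calls held in 120 of 124 alternatives at 24 h, the 4 losses being Tpm1, and in 124 of 124 at 48 h. From 24 h to 48 h, 109 of 126 gave the same outcome, called or not. These include runs in which Cald1 (8), Tpm2 (10) and Myl9 (8) stayed not called. A call was lost in 1 run (Tagln, all 9 libraries in 1 fit), and 16 were gained by Cald1, Tpm2 and Myl9. That fit of all 9 libraries called 5 of the 9 genes from 24 h to 48 h. With 1 library left out at a time, 8 to 9 of the 9 genes were called at 24 h, 9 to 9 at 48 h and 6 to 9 from 24 h to 48 h. The strictest filter, at least 10 counts in every library, removed Actg2 and Cnn1 against 0 h.

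Over all genes, leaving out 1 library gave 2607 to 6023 calls at 24 h, 3471 to 7116 at 48 h and 1857 to 4356 from 24 h to 48 h. Counts more than 1.5 times below the full ones came without replicate 2 of 0 h (2931) and replicates 1, 2 and 3 of 24 h (2610, 2607 and 2806) in the first, without replicates 1 and 3 of 48 h (3471 and 3624) in the second, and without replicate 1 of 24 h (2044) and replicates 1 and 3 of 48 h (1857 and 2255) in the third. The fit of all 9 libraries called 1043 of 18262 genes from 24 h to 48 h instead of 3732 of 17499. The causes were not tested.

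Deviations from the mean of the time point had correlations of -0.28 to 0.20 in same-numbered libraries, with 1 of 9 pairs over 0.1. Differently numbered libraries ran from -0.39 to 0.38. With 3 libraries per time point, this check cannot decide whether a replicate number stands for a shared batch. The replicate block gave 3007, 4013 and 2497 calls over all genes and 8, 9 and 6 of the 9 genes.

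The gain in family share from 0 h to 48 h, in points of family TPM, depended on gene length. With the longest transcript it was 6.49 for actin, 4.10 for myosin heavy chain, 13.3 for regulatory light chain and 22 for tropomyosin, and with raw counts 6.62, 3.61, 8.09 and 23.5, against 8.11, 5.59, 17.7 and 18.0. With 1 library left out it ran from 7.61 to 8.79 for actin, 5.19 to 6.01 for myosin heavy chain, 16.0 to 19.8 for the light chain, 51.2 to 55 for transgelin, 4.18 to 4.73 for calponin and 17.2 to 18.6 for tropomyosin.

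Of the other list genes called, 51 of 71 at 24 h, 62 of 82 at 48 h and 14 of 46 from 24 h to 48 h kept the call under every alternative, and none of these genes changed sign. The alternatives for these genes, and the shares of the rise with libraries left out, were added after seeing the data. Counts of 3 or fewer per library at 0 h limit the size of the rise of Actg2 and Myocd.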
